A study of Mus musculus with 26 samples.

Results

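The transcripts of the 3 chains of complement C1q (C1qa, C1qb and C1qc) and of 4 genes used as markers of macrophages (Cd68, Lyz2, Mpeg1 and Tyrobp) were followed through pressure overload of the mouse heart. They are 7 of the 8251 genes that have a probe set of their own in the probe table given with the series, and the rule takes each probe set assigned to exactly 1 of the 7, which gave 11 of the 12488 probe sets on the array. Of these 11, 8 passed the filter on low values and were tested, and each of the 7 genes was represented by its brightest tested probe set, all 7 of which lay above the filter on 26 of 26 arrays.

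The load was imposed by transverse aortic constriction (TAC), surgery in which a band narrows the aortic arch and raises the pressure the left ventricle works against; sham animals were the controls. The study hybridised total RNA of mouse heart to 26 Affymetrix arrays. Sham surgery was measured on 4 arrays at each of 48 h, 10 d and 3 wk, and TAC on 5 arrays at 48 h, 4 at 10 d and 5 at 3 wk. Strain, age, sex, the part of the heart taken and any pooling of animals are not given in the sources used here. Nothing in the labels ties each array to a separate animal, so a p-value here speaks of the spread between arrays, which may be technical.

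C1q is the recognition subunit of the complex that starts the classical pathway of complement. It is built from an A, a B and a C chain, and once bound to immune complexes or dying cells it activates the attached proteases C1r and C1s and, through them, C4, C2 and C3. Unlike most complement proteins, which come largely from the liver, C1q is made in tissues mainly by macrophages and related myeloid cells, and it also takes part in the clearance of dying cells. The heart holds resident macrophages and takes up blood monocytes when it is stressed.

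The 3 C1q genes lie next to each other on mouse chromosome 4 (GRCm38.p6, RefSeq): C1qb at chr4:136880126-136886200, C1qc at chr4:136889801-136892936 and C1qa at chr4:136895916-136898844. Cd68 lies on chromosome 11, Lyz2 on chromosome 10, Mpeg1 on chromosome 19 and Tyrobp on chromosome 7. The RefSeq promoter table held 5 of the 7 genes (C1qb, C1qc, Cd68, Lyz2 and Mpeg1). The 250 bases before the transcription start of 3 of them are shown, because they hold the letters GAGGAA, the core bound by the myeloid ETS factor encoded by Spi1, and because C1qb and C1qc are neighbours with log2 changes of 0.61 and 0.08 at 3 wk. Each is written 5′ to 3′ on the minus strand of its chromosome, which is the strand of the gene, with GAGGAA or its reverse complement in capitals.
C1qb, chr4:136886201-136886450: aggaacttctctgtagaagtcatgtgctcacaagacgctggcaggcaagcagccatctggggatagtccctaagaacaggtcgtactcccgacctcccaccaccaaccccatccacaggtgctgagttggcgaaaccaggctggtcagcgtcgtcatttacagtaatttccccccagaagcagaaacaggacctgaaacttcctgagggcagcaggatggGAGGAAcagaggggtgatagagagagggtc
C1qc, chr4:136892915-136893164: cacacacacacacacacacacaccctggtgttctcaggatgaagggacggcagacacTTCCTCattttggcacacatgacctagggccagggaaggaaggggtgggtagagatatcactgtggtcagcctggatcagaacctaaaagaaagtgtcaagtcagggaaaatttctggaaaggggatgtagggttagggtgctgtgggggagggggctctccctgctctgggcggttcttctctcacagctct
Cd68, chr11:69666171-69666420: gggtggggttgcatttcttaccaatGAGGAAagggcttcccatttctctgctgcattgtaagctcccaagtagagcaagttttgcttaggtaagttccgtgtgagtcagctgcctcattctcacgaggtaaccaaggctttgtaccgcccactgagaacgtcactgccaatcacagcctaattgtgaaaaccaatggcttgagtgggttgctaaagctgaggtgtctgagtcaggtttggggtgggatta
The match starts 30 bases before the transcription start in C1qb, 193 bases before it in C1qc, where it is on the other strand, and 225 bases before it in Cd68. The C1qc window reaches down to 136892915, inside the gene span given above, which ends at 136892936. Its distance is counted from the start used for the window. GAGGAA was searched on both strands of the same 250 bases of all 32851 promoters, and 23.3% held it, against 3 of the 5 member promoters. The AP-1 motif TGANTCA stood in 6.75% of all promoters and in 1 of the 5 (Cd68, with 2 matches, 149 and 24 bases before the start). The E-box CACGTG stood in 6.02% of all promoters and in 0 of the 5. A match describes the letters of the window only.

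Array medians were 741 to 1031 intensity units. No scan day held 2 durations: all 48 h arrays were scanned on 1 day, 1 TAC array at 10 d (replicate 4) was scanned apart from the other 7, and at 3 wk the main scan day held sham replicates 2 and 3 with TAC replicates 1, 2 and 3, while TAC replicates 4 and 5 shared another day and sham replicates 1 and 4 have no recorded day. Values on the main scan day alone are therefore given beside each TAC against sham call of the 7 genes at 10 d and 3 wk, and beside the calls of other genes that are reported with their values. RNA quality, read as the 3′ to 5′ ratio of the Actb and Gapdh control probe sets, gave exact p from 0.143 to 0.886 between TAC and sham over 6 two-sided permutation tests. All 10 heart muscle markers with a probe set of their own passed the filter.

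At 48 h none of the 7 genes passed the test. At 10 d the 3 C1q chains, Lyz2, Mpeg1 and Tyrobp were higher in TAC hearts, by 1.31 to 1.74 fold. At 3 wk C1qa, C1qb, Cd68 and Lyz2 were higher, by 1.27 to 1.58 fold, whereas C1qc, Mpeg1 and Tyrobp did not pass. In RNA of heart tissue, more cells of a type and more RNA per cell cannot be told apart.

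A gene passed when its Benjamini-Hochberg adjusted p over the 7297 tested probe sets, from 1 limma fit of all arrays, was under 0.05. At 48 h 0 of 7 genes passed, against 0.0539% of 5564 genes higher in TAC, and 0 of 7 had an unadjusted p under 0.05 (6.43% of genes did in either direction); an unmoderated test also called 0. At 10 d 6 of 7 passed as higher, against 3.04% of genes, and at 3 wk 4 of 7, against 2.93%. The 7 genes were chosen with earlier results of these data known, so these shares are a description and not a test. An unadjusted p under 0.05 in either direction, the share against which such counts of the gene lists stand, was reached by 21.6% of genes at 10 d and 20% at 3 wk. An unmoderated test called 0 of 7 at 10 d and at 3 wk. At 3 wk a fit of that duration's arrays alone, or of its main scan day alone, also called 0. How many of all genes these fits called is not given here. By the unmoderated test Ctss and Lcp1 lost their 10 d calls too (adjusted p = 0.0948 and 0.164), while Cd93 kept its call. None of the 7 passed as lower at any duration, against 0%, 1.99% and 1.89% of genes. The TAC arrays all lay above the sham arrays for 0, 7 and 4 of the 7 genes at 48 h, 10 d and 3 wk, against 1.22%, 7.93% and 4.4% of genes. The median log2 change of the 7 genes was 0.17, 0.62 and 0.35, where the median over all tested genes was -0.01, -0.02 and -0.00.

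**Figure D1:**
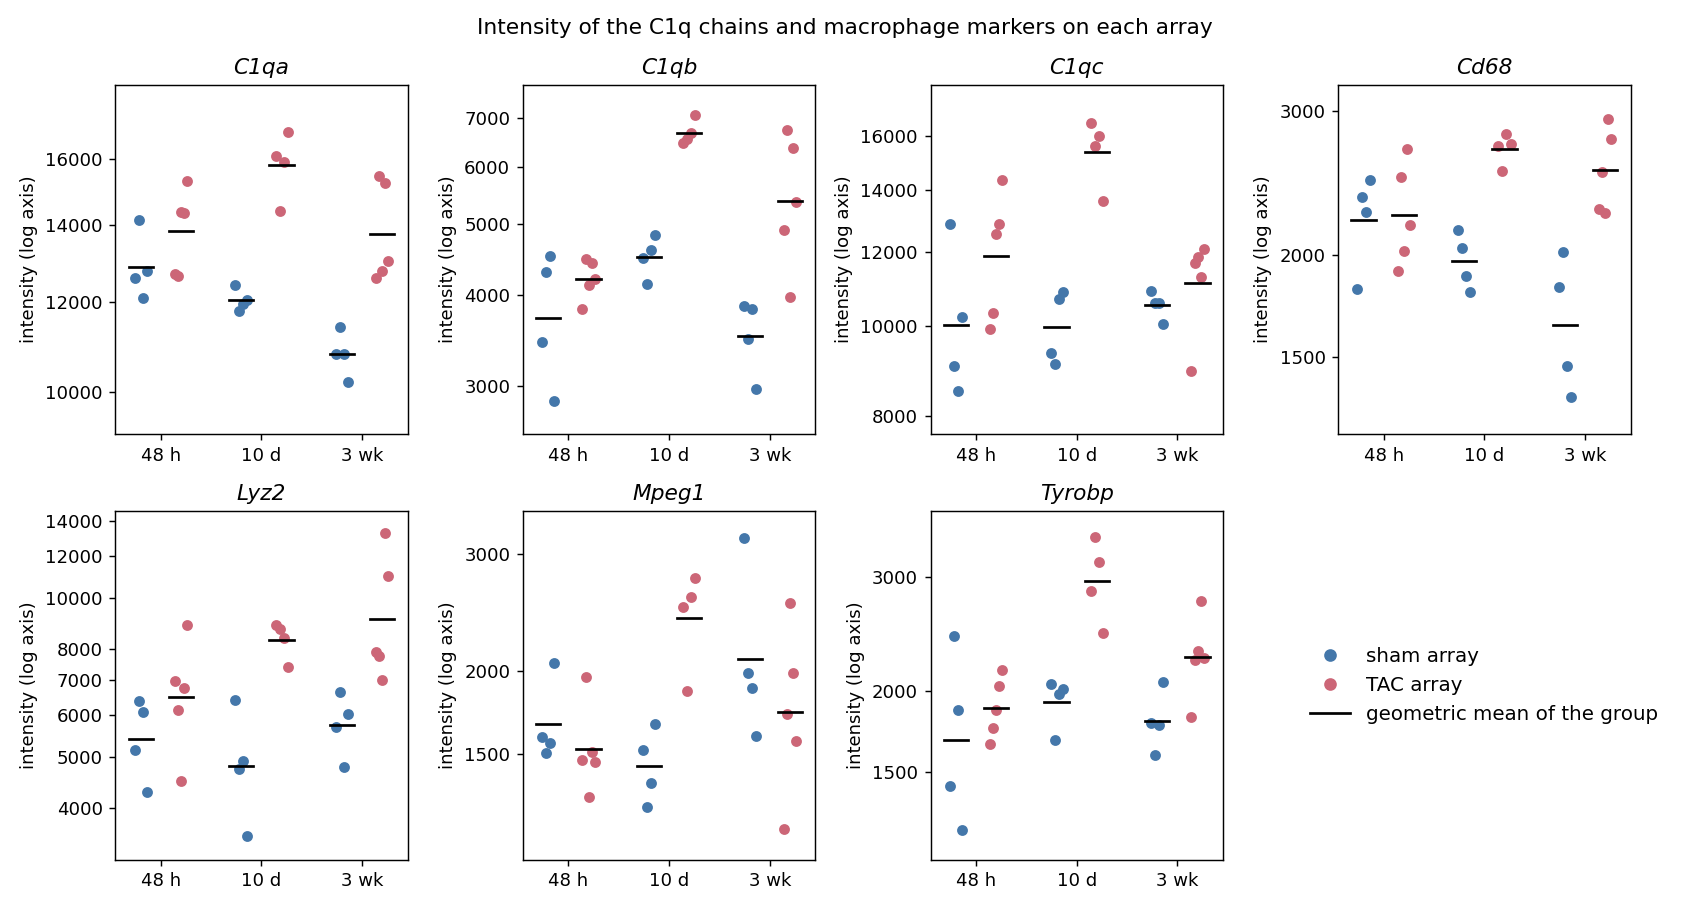
Intensity of each of the 7 genes (log axis, arbitrary units) on every array, by duration; blue points are sham arrays, red points TAC arrays, and black bars the geometric mean of each group. At 10 d the TAC points lie above the sham points in all 7 panels, at 3 wk they do so for C1qa, C1qb, Cd68 and Lyz2, and at 48 h they overlap in every panel.

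C1qa encodes the A chain, through which C1q also binds several of its non-immunoglobulin ligands. At 10 d its intensity was 12413, 11770.4, 11944 and 12044 on the 4 sham arrays and 16109, 14399, 15911.5 and 16882 on the 4 TAC arrays. The lowest TAC array lay above the highest sham array, and the difference was 0.39 ± 0.09 (log2 change ± SE, adjusted p = 0.00799). On the main scan day alone it was 0.36 (adjusted p = 0.0347). At 3 wk the sham arrays read 10798, 11407, 10799.8 and 10221 and the TAC arrays 12598, 15453, 12765, 15235 and 13027, again without overlap, a difference of 0.35 ± 0.08 (log2 change ± SE, adjusted p = 0.0121). The 2 sham and 3 TAC arrays of the main scan day gave 0.29 (adjusted p = 0.285), still in the same direction but no longer past the threshold. At 48 h the ranges, 12585, 14151, 12105 and 12770.1 against 12680.5, 12647, 14388, 14339.5 and 15317, overlapped, and the change was 0.10 ± 0.08 (log2 change ± SE, adjusted p = 0.948).

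C1qb encodes the B chain. At 10 d it read 4501, 4144, 4606 and 4829 on sham and 6457, 6558, 6666 and 7062 on TAC arrays. The 4 TAC values lay close together and above all sham values, and the difference was 0.57 ± 0.14 (log2 change ± SE, adjusted p = 0.0200). The call was lost on the main scan day alone (0.54, adjusted p = 0.0534), without TAC replicate 4 (adjusted p = 0.0573) and without sham replicate 2 (0.53, adjusted p = 0.0591). At 3 wk sham arrays read 3866, 3477, 3827 and 2969.9 and TAC arrays 4917, 6737, 3975, 6364 and 5369.9. TAC replicate 3 lay just above the highest sham array and the other 4 well above it, with a difference of 0.61 ± 0.13 (log2 change ± SE, adjusted p = 0.00767) and, on the main scan day alone, 0.48 (adjusted p = 0.271). At 48 h the sham arrays, 3448, 4298.5, 4529.8 and 2868, spread around the TAC arrays, 3828, 4481, 4134, 4429 and 4208, with a change of 0.18 ± 0.13 (log2 change ± SE, adjusted p = 0.943). A dimmer C1qb probe set, above the filter on 6 of 26 arrays, gave log2 changes of -0.92, -0.07 and -0.29 at the 3 durations, none of which passed (adjusted p = 0.810, 0.955 and 0.778).

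C1qc encodes the C chain. Its intensity at 10 d was 9343, 9095, 10684 and 10886 on sham and 16531, 15639, 16001 and 13631 on TAC arrays. The groups did not overlap, and the difference of 0.63 ± 0.13 (log2 change ± SE, adjusted p = 0.00354) was the largest of the 3 chains at that duration; on the main scan day alone it was 0.69 (adjusted p = 0.00885). At 3 wk the sham arrays read 10899, 10587, 10598 and 10051 and the TAC arrays 8934, 11686, 11873.5, 11278 and 12106. TAC replicate 1 was the lowest of the 9 arrays and the other 4 TAC arrays were the highest, so the groups overlapped, with a change of 0.08 ± 0.12 (log2 change ± SE, adjusted p = 0.779) and a 95% interval of -0.17 to 0.32. Without that array the change was 0.16 and did not pass either (adjusted p = 0.482). The 48 h change was 0.24 ± 0.12 (log2 change ± SE, adjusted p = 0.810), with sham arrays from 8499 to 12872 and TAC arrays from 9926 to 14356.

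Ordered by group mean, C1qa ran from 3 wk sham (10806 ± 484, mean ± SD) through 10 d sham (12043 ± 271), 48 h sham (12903 ± 878), 3 wk TAC (13816 ± 1406) and 48 h TAC (13874 ± 1172) to 10 d TAC (15825 ± 1039). Neighbours in that order overlapped in range except 3 wk and 10 d sham. For C1qb the lowest group was also 3 wk sham (3535 ± 415) and the highest 10 d TAC (6686 ± 265), with 3 wk TAC (5473 ± 1113) next to it and overlapping it. For C1qc 10 d sham was the lowest (10002 ± 914) and 10 d TAC the highest (15451 ± 1267), followed by 48 h TAC (12005.5 ± 1852), and its 3 sham groups overlapped. The highest group mean was 10 d TAC for 6 of the 7 genes; for Lyz2 it was 3 wk TAC. Levels of different durations come from different scan days.

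The 3 chains are assembled together, so their ratio within each array was also compared. The ratio itself depends on the probes, and only its difference between groups was tested, in 9 two-sided exact permutation tests chosen after the values had been seen. At 3 wk the log2 ratio of C1qb to C1qc was -1.58 ± 0.13 (mean ± SD) on the 4 sham arrays and -1.05 ± 0.33 on the 5 TAC arrays. TAC arrays were higher by 0.54, with an exact p of 0.0317 and an adjusted p over the 9 tests of 0.143, which does not pass. The smallest p the design allows is 0.00794. A single ratio at that p would still not pass alone after adjustment over 9 tests, so the failure to pass decides little. On the main scan day alone the difference was 0.46 (exact p = 0.300, 2 sham against 3 TAC arrays). So few arrays allow no exact p under 0.05, so this p cannot decide whether the difference holds within a scan day. At 10 d, when the 3 chains rose, the same ratio was -1.14 ± 0.07 on sham and -1.21 ± 0.18 on TAC arrays (exact p = 0.543). The other ratios gave differences from -0.26 to 0.27, with adjusted p of 0.143 or more.

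**Figure D2:**
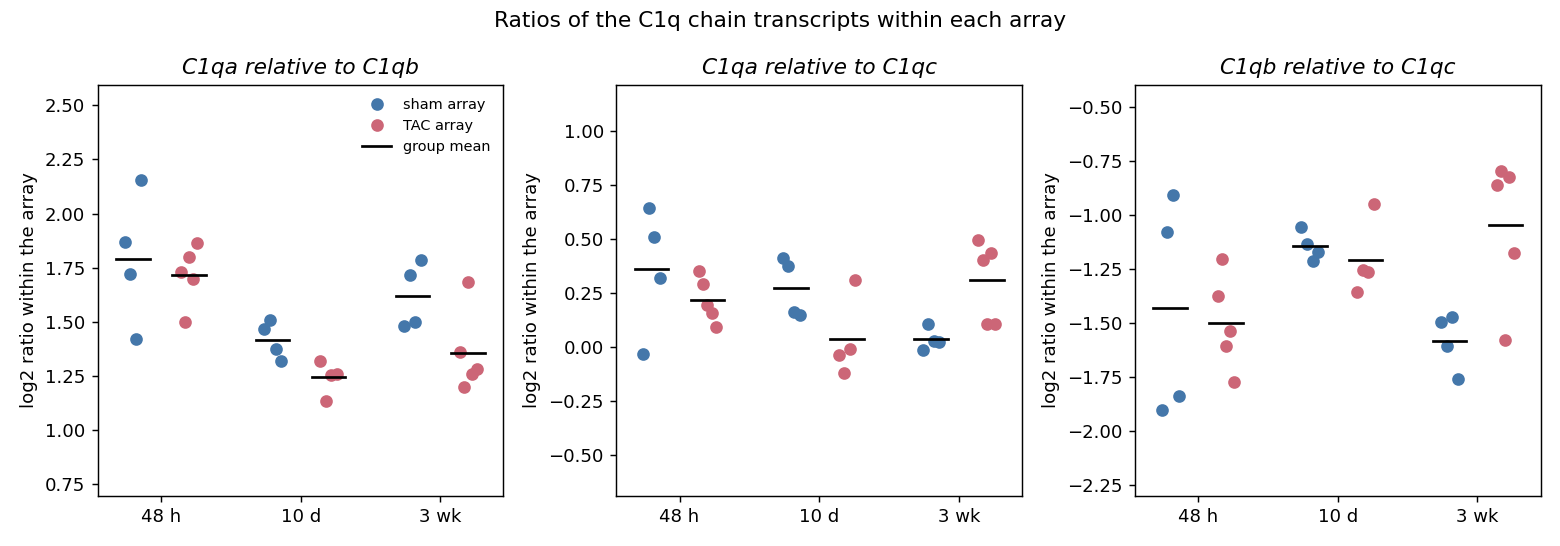
Log2 ratio of C1qa to C1qb, C1qa to C1qc and C1qb to C1qc within each array, by duration; blue points are sham arrays, red points TAC arrays and black bars group means, and the 3 panels span the same range. At 3 wk the TAC points of C1qb relative to C1qc lie mostly above the sham points. The difference of 0.54 does not pass after adjustment, which a single ratio could not do alone with these arrays.

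Tyrobp encodes DAP12, a membrane adapter through which TREM2 and other receptors of myeloid and natural killer cells signal. At 10 d it read 2047, 1679.7, 1976 and 2011 on sham and 2859, 3452, 3163.5 and 2459 on TAC arrays. All TAC arrays were above all sham arrays, and the difference was 0.62 ± 0.17 (log2 change ± SE, adjusted p = 0.0329). The call was lost when any 1 of the 4 sham arrays or TAC replicate 2 or 3 was left out, with adjusted p up to 0.109, while the change stayed between 0.55 and 0.71; on the main scan day alone it was 0.71 (adjusted p = 0.0314). At 3 wk sham arrays read 1784, 1591, 1774 and 2067 and TAC arrays 1826, 2229.9, 2303, 2757 and 2251, with TAC replicate 1 inside the sham range, and the change of 0.33 ± 0.16 (log2 change ± SE, adjusted p = 0.262) did not pass. At 48 h the sham arrays spanned more, from 1219.7 to 2433, than the TAC arrays, from 1656.5 to 2158, and the change was 0.17 ± 0.16 (log2 change ± SE, adjusted p = 0.970).

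Cd68 encodes a heavily glycosylated protein of late endosomes and lysosomes, abundant in macrophages. At 10 d the sham arrays read 2143.5, 2040.0, 1885 and 1800.4 and the TAC arrays 2717, 2532, 2818 and 2731.5. The groups did not overlap, but the difference of 0.46 ± 0.14 (log2 change ± SE, adjusted p = 0.0587) missed the threshold; on the main scan day alone it was 0.45 (adjusted p = 0.0903). At 3 wk the sham arrays read 1827, 2016, 1459 and 1339 and the TAC arrays 2279, 2528, 2249.5, 2938 and 2777. These groups did not overlap either, and the difference of 0.63 ± 0.13 (log2 change ± SE, adjusted p = 0.00659) passed, whereas on the main scan day alone it was 0.45 (adjusted p = 0.279). At 48 h sham and TAC arrays overlapped almost fully, with a change of 0.02 ± 0.13 (log2 change ± SE, adjusted p = 0.995). The 3 wk sham mean, 1660.1 ± 315, was the lowest of the 6 groups.

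Lyz2 encodes lysozyme M, the bactericidal enzyme of macrophages and neutrophils. At 10 d it read 6399, 4748, 4919 and 3545 on sham and 8873, 8734, 8406 and 7398.5 on TAC arrays. The difference of 0.80 ± 0.20 (log2 change ± SE, adjusted p = 0.0194) was the largest of the 7 genes at 10 d, without overlap, and it did not pass without sham replicate 4 (0.65, adjusted p = 0.0880) or without TAC replicate 2 (0.77, adjusted p = 0.0579); on the main scan day alone it was 0.85 (adjusted p = 0.0174). At 3 wk sham arrays read 5703, 6649, 4792 and 6033 and TAC arrays 7913, 7748, 7003, 13311 and 10985. TAC replicates 4 and 5, the pair scanned on another day, were the highest, and the difference was 0.66 ± 0.19 (log2 change ± SE, adjusted p = 0.0393). On the main scan day alone it was 0.42 (adjusted p = 0.520), and leaving out any of 5 single arrays (sham replicates 1, 3 and 4, TAC replicates 4 and 5) ended the call, with changes of 0.53 to 0.69. Its change at 48 h was 0.26 ± 0.19 (log2 change ± SE, adjusted p = 0.927). A probe set that names both Lyz1 and Lyz2, and is therefore no member, changed by 0.22, 0.69 and 0.66 at the 3 durations without passing (adjusted p = 0.970, 0.0860 and 0.0866), and the signals of these near-identical genes cannot be told apart on it.

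Mpeg1 encodes perforin-2, a pore-forming protein of phagocytes. At 10 d sham arrays read 1517, 1246, 1352 and 1664 and TAC arrays 2498, 1861.5, 2588 and 2765. The groups did not overlap and the difference was 0.74 ± 0.21 (log2 change ± SE, adjusted p = 0.0395), but it passed in only 1 of the 8 fits that left out 1 array (that without TAC replicate 2), with changes of 0.67 to 0.86, and on the main scan day alone it was 0.67 (adjusted p = 0.0801). At 3 wk the sham arrays read 3174, 1983, 1882 and 1597 and the TAC arrays 1152, 1722, 2536, 1985 and 1569. The highest array was a sham array and the lowest a TAC array, and the change of -0.27 ± 0.20 (log2 change ± SE, adjusted p = 0.498) did not pass. The 48 h change was -0.13 ± 0.20 (log2 change ± SE, adjusted p = 0.988), also with overlap. Second probe sets of Cd68, Lyz2 and Mpeg1 stood above the floor of 167.9 on 5, 2 and 1 of 26 arrays and were not tested.

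**Figure D3:**
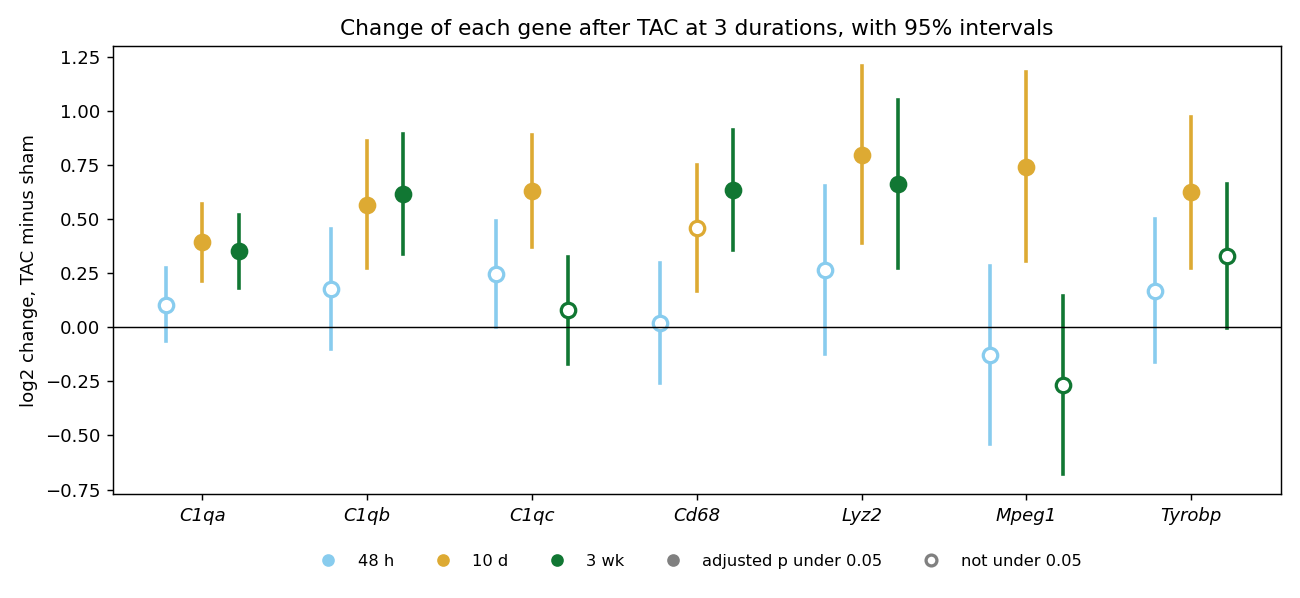
Log2 change of each gene, TAC minus sham, at 48 h, 10 d and 3 wk, with 95% intervals of the limma fit; filled points have an adjusted p under 0.05. The 10 d estimates lie between 0.39 and 0.80 for all 7 genes, while at 3 wk C1qc (0.08) and Mpeg1 (-0.27) lie apart from C1qb, Cd68 and Lyz2 (0.61 to 0.66).

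Whether the effect of TAC itself differed between durations was tested by the difference of the 2 changes. None of the 7 genes passed in any of the 3 comparisons (lowest adjusted p = 0.266, 0.218 and 0.404), where 0.108%, 0% and 0.018% of all genes passed. At an unadjusted p under 0.05 stood 4 of the 7 genes for 10 d minus 48 h (10.9% of all genes), 3 for 3 wk minus 48 h (11.6%) and 2 for 3 wk minus 10 d (8.36%). Of these, the effect on Mpeg1 was 1.01 lower at 3 wk than at 10 d (95% interval -1.61 to -0.41, adjusted p = 0.404), and that on C1qc was 0.55 lower (interval -0.91 to -0.19, adjusted p = 0.457). The effect on Cd68 was 0.61 higher at 3 wk than at 48 h (interval 0.22 to 1.01, adjusted p = 0.218). The intervals of C1qa, C1qb, Lyz2, Cd68 and Tyrobp between 10 d and 3 wk all included 0.

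Among the sham hearts alone, 2 of the 7 genes were lower at 3 wk than at 48 h, against 15.6% of genes that were lower and 33.4% that differed in either direction. C1qa was lower by 0.25 (adjusted p = 0.0256) and Cd68 by 0.43 (adjusted p = 0.0210), and both differences share their 3 wk sham arrays with the TAC comparison. Between 10 d and 48 h sham, and between 3 wk and 10 d sham, 0 of 7 passed, against 22% and 2.86% of genes, with 0 and 2 of 7 at an unadjusted p under 0.05, against 34.9% and 18.6% of genes. The 2 were C1qb, lower by 0.36, and Mpeg1, 0.54 higher, at 3 wk than at 10 d. These groups were scanned on different days, so duration cannot be told apart from scan day. Centring each array on its median moved the median of all probe sets between 3 wk and 48 h sham from 0.09 to -0.25. After it 5 sham differences of the 7 genes passed instead of 2. The share of all genes that then passed is not given here, so the 5 are not read as particular to these genes.

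The members were set beside other genes of complement and of macrophages. The 3 tested genes of the classical and lectin pathways (C1ra, C2 and Fcna, the last encoding ficolin A, a recognition molecule of the lectin pathway) gave 0 calls and 0 unadjusted p under 0.05 at each duration. At 10 d the protease gene C1ra changed by -0.07 (adjusted p = 0.851) and C2, the protease cleaved by C1s, by 0.24 (adjusted p = 0.643); a second C1ra probe set gave 1.15 without passing (adjusted p = 0.155). None of the 3 genes listed for the alternative pathway and C3 that have a probe set of their own passed the filter. These were Cfb, Cfp and Hc, the last of which encodes C5. C3 and C4b were not analysed here. Of the terminal components tested, C8g (-0.70, adjusted p = 0.175) and C9 (-0.40, adjusted p = 0.662) at 10 d also did not pass.

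Of 6 tested complement regulators 1 passed, at 3 wk. Cd59a, which blocks the membrane attack complex, read 11082, 16937, 13833 and 14066 on sham and 8580.2, 11835, 11114, 7975 and 10248.5 on TAC arrays at 3 wk, mostly lower in TAC with an overlap, and fell by 0.49 (adjusted p = 0.0127). The call was lost on the main scan day alone (-0.56, adjusted p = 0.0829), with scan day as a block, with only the groups compared, after median centring, by the unmoderated test (adjusted p = 0.260), and without sham replicate 2 (adjusted p = 0.0672) or TAC replicate 4 (adjusted p = 0.0535). Serping1, the C1 inhibitor, was 0.22 higher at 10 d (adjusted p = 0.433) and Clu, a fluid-phase inhibitor, 0.32 higher (adjusted p = 0.377), neither past the threshold. Of 5 tested receptors of complement and C1q 1 passed, at 10 d. Cd93, first described as a C1q receptor and abundant in endothelium, read 4755, 5321, 5411 and 6079 on sham and 10355, 12219, 11602 and 12228 on TAC arrays, a rise of 1.11 (adjusted p = 2.02e-05) and, on the main scan day alone, of 1.08 (adjusted p = 0.000363). At 3 wk it was 0.37 higher (adjusted p = 0.0884). C3ar1, the receptor for C3a, differed by 0.29, 0.26 and 0.28 at the 3 durations (adjusted p = 0.917, 0.521 and 0.463), and Lrp1 by 0.24 at 10 d (adjusted p = 0.329).

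Of 22 other macrophage markers on the array 12 were tested, and 0, 2 and 0 rose at 48 h, 10 d and 3 wk, with 3, 4 and 2 at an unadjusted p under 0.05 and medians of 0.19, 0.33 and 0.06. The changes lay above 0 for 10, 9 and 7 of the 12. At the 3 durations Folr2 gave -0.26, -0.10 and -0.01, Laptm5 -0.05, -0.03 and -0.02, and Lyve1 0.60, -0.05 and -0.19. None of these passed (lowest adjusted p = 0.479). Ctss, the lysosomal protease cathepsin S, read 2741, 3117.5, 3328 and 2549 on sham and 5513, 6022, 5412 and 4024 on TAC arrays at 10 d, without overlap, and rose by 0.83 (adjusted p = 0.00354), or 0.95 on the main scan day alone (adjusted p = 0.00231). Csf1r, the receptor of the macrophage growth factor CSF1, rose by 0.55 (adjusted p = 0.0488), or 0.63 within the main scan day (adjusted p = 0.0428), and lost the call in 7 of 8 fits without 1 array; its second probe set went the other way (-0.69, adjusted p = 0.241). At 3 wk Ctss was 0.46 higher (adjusted p = 0.0891) and Csf1r 0.40 higher (adjusted p = 0.129). Cd14, the lipopolysaccharide co-receptor, differed by 0.40 at 48 h and 0.29 at 10 d without passing (adjusted p = 0.604 and 0.313). Adgre1, a surface receptor used to identify mouse macrophages, and Fcer1g, the Fc receptor gamma chain, were above the floor on 22 and 19 of 26 arrays and failed the filter. The summed intensity of the 12 tested markers at 10 d ranged from 54664 to 64211 on sham and from 74932 to 86104 on TAC arrays, without overlap. At 3 wk it ranged from 57215 to 78468 and from 58892 to 90846, with overlap. Apoe was by far the brightest of the 12, with a mean intensity of 36565.5, where Cd14, the next, had 5465. These sums therefore weigh Apoe most and do not show a joint rise of the 12. Apoe changed by 0.49 at 10 d, without overlap, and by -0.10 at 3 wk, neither passing (adjusted p = 0.173 and 0.823).

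Of the genes around Tyrobp, 5 of 7 receptors and signalling partners on the array were tested, and 0 passed at each duration, with 0, 1 and 1 at an unadjusted p under 0.05. Of 5 tested growth factors and attractants of macrophages, Ccl8, a chemokine for monocytes, passed at 3 wk. It read 368, 238, 291 and 133 on sham and 777, 588, 1114, 3089 and 1794 on TAC arrays, a rise of 2.27 (adjusted p = 0.00439), without overlap. The call was lost on the main scan day alone (1.60, adjusted p = 0.235), with scan day as a block, with the floor at the 40th percentile (1.18, adjusted p = 0.0624), with a replicate block (adjusted p = 0.0513) and by the unmoderated test (adjusted p = 0.167). At 10 d it was 1.18 higher (adjusted p = 0.153).

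**Figure D4:**
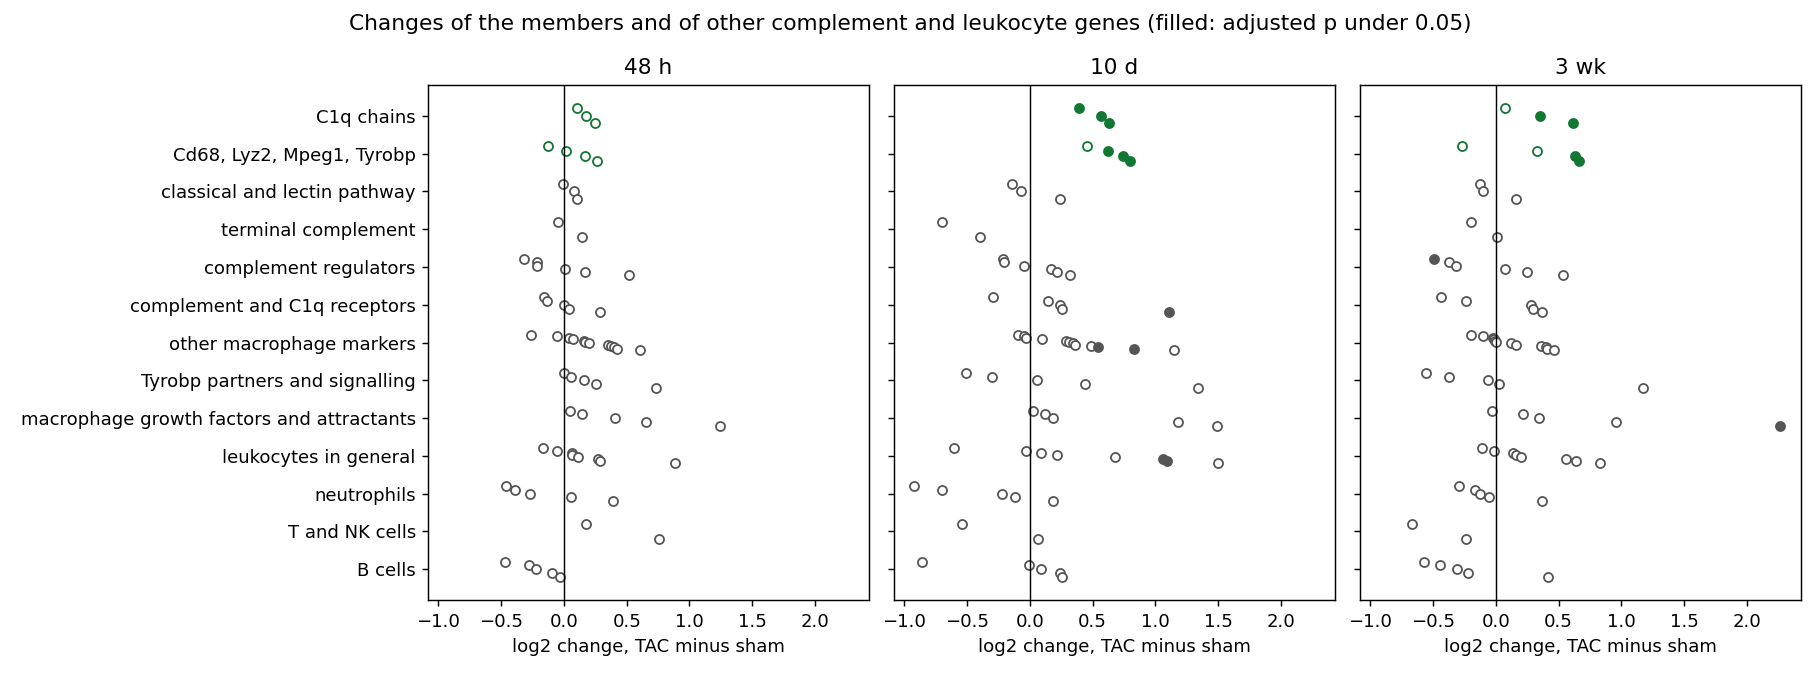
Log2 change, TAC minus sham, of each tested gene of 11 complement and leukocyte lists at 48 h, 10 d and 3 wk; green points are the C1q chains and the 4 macrophage markers, grey points the other genes of these lists (tissue cells, mast, dendritic and erythroid cells are not drawn), and filled points have an adjusted p under 0.05. At 10 d all green points lie to the right of 0, and of the grey ones Cd93, Ctss, Csf1r, Lcp1 and Coro1a are filled.

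Markers of other cells were read in the same fit. Of 8 tested genes of leukocytes in general, 2 rose at 10 d: Lcp1, an actin-bundling protein, by 1.09 (adjusted p = 0.00178), or 1.06 within the main scan day (adjusted p = 0.00885), and Coro1a, an actin-binding protein, by 1.06 (adjusted p = 0.0341). Coro1a overlapped between the groups and lost its call in 6 of 8 fits without 1 array and on the main scan day alone (1.04, adjusted p = 0.0711). In the same list Rac2, a small GTPase of blood cells, gave -0.60 at 10 d with all TAC arrays below all sham arrays (adjusted p = 0.140), and 0, 6 and 1 of the 8 had an unadjusted p under 0.05 at the 3 durations. At 3 wk Lcp1 and Coro1a were 0.64 and 0.56 higher without passing (adjusted p = 0.0561 and 0.263). Neutrophils, which also hold Lyz2, had 5 tested markers with 0 calls, medians of -0.27, -0.22 and -0.12, and 0, 1 and 0 at an unadjusted p under 0.05. Their summed intensity at 10 d ranged from 6315 to 9368 on sham and 3180 to 7000 on TAC arrays, and the 13 neutrophil markers on the array were above the floor on 7 (Mmp9) to 26 of 26 arrays, S100a8 on 25 and S100a9 on 9. Natural killer and T cells, some of which also hold Tyrobp, had 2 tested markers with 0 calls (0, 1 and 0 unadjusted), and the 14 on the array were above the floor on 0 (Cd8a) to 26 arrays, Cd4 and Lat on 26, Cd247 on 23, Prf1 on 21, Ncr1 on 6 and Cd3g on 2. B cells (5 tested) and dendritic cells (4 tested) also gave 0 calls, with 0, 1 and 1 and with 0, 2 and 0 at an unadjusted p under 0.05. Mast cells (1 tested), erythroid cells (4), skeletal muscle (5) and atrial muscle (5) gave 0 calls too, with 0 unadjusted except 2 and 1 for skeletal muscle at 48 h and 3 wk and 2 for atrial muscle at 3 wk.

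Of the tissue's own cells, 5 and 6 of 11 fibroblast markers rose at 10 d and 3 wk, among them Col1a1 and Postn. Of those that did not pass, Vim gave -0.77 at 10 d with all TAC arrays below all sham arrays (adjusted p = 0.0950), Col1a2 gave -0.39 and -0.43 at 10 d and 3 wk (adjusted p = 0.238 and 0.179), and 8 and 6 of the 11 changes lay above 0. In the same comparisons 3 of 10 endothelial markers rose at 10 d (Cldn5, Tie1 and Cdh5) and 0 at 3 wk, where 3 had an unadjusted p under 0.05. Of the 10 endothelial changes 7 lay above 0 at 10 d and 7 at 3 wk, with medians of 0.24 and 0.13. Of 10 heart muscle markers 1 fell at 10 d (Ryr2, by 0.43, adjusted p = 0.0329) and 1 at 3 wk (Ckm, by 0.37, adjusted p = 0.0364). Ryr2 lost its call in 6 of 8 fits without 1 array and on the main scan day alone (-0.36, adjusted p = 0.0991). Ckm lost its call in 6 of 9 such fits and on the main scan day alone (-0.20, adjusted p = 0.515). Another probe set of Ckm gave 0.0526 (adjusted p = 0.968). Of the 10 heart muscle changes 7 lay above 0 at 10 d, with a median of 0.13, and 0 at 3 wk, with a median of -0.36. The part of these cell types in the changes of C1q and the macrophage markers was not tested.

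The transcripts most like the C1q chains over the 26 arrays were sought as a description, by Pearson's r with the mean of the standardised C1qa, C1qb and C1qc values. They were Gnai2 (r = 0.866), Ifitm3 (0.844), Lgals9 (0.838), Col4a1 (0.820), Cfl1 (0.809), Tmem176b (0.807), Ly6e (0.804) and Col6a2 (0.797). Among the members, Tyrobp (r = 0.761) and Cd68 (0.718) came closest, followed by Lyz2 (0.586) and Mpeg1 (0.339). These arrays share surgery group, duration and scan day, and after each group's mean was taken away the values fell to 0.401 for Tyrobp, 0.323 for Cd68, 0.244 for Lyz2 and 0.151 for Mpeg1. Within groups the 8 most like were Rpl6 (0.708), Ctsb (0.706), Hmces (0.701), Dad1 (0.691), Dffa (0.664), Nup50 (0.653) and 2 probe sets that the table does not name. Over the 21 pairs of members the within-group r ranged from -0.13 to 0.49 with a median of 0.25, and for C1qb with C1qc it was -0.08.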

How the data were processed

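Each deposited value is a linear intensity of 1 probe set on 1 MG_U74Av2 array (array type per the array description files). How the authors summarised probes into these intensities was not given in the sources used here. Means after trimming 2% at each end were 2501.81 to 2502.2 on every array, so the arrays appear scaled to one level, a step that no source used here states. Precision is limited by the number of arrays. No further scaling was applied: values below a floor at the 20th percentile of all values (167.9) were set to it and log2 was taken. After 66 controls, probe sets above the pooled median (880.1) on at least 4 arrays were kept (7297, for 5564 genes by the brightest probe set of each). In the table given for the probes, 1 gene is named by 10833 probe sets, several by 396 and none by 1193.

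One limma model (version 3.58.1, R 4.3.3; lmFit with a mean per group, eBayes with an intensity trend) gave the TAC minus sham contrast of every duration, how that contrast differed between durations, and the differences between sham groups, with Benjamini-Hochberg adjustment over the 7297 probe sets. The code was tested on simulated data. RNA quality and chain ratios were compared by two-sided exact permutation tests. Scan days came from the array description files. No arrays held identical values (same-group r 0.922 to 0.961). Named beside the members were genes of 20 lists that passed, up to 4 a list, and the 2 brightest of each complement list (given at 10 d). Some fixed macrophage and complement genes where measured, and the 8 probe sets most like C1q, were named too. Fibroblast and endothelial genes that passed are given by name and count only. Rac2, Vim, Col1a2, Apoe, Folr2, Laptm5 and Lyve1 were added after their values were seen. The members and lists were chosen with earlier results of these data known. Alternatives covered normalization, floor, filter, variance model, array weights, arrays in the fit, scan day, replicate number, probe set and each array left out.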

Additional observations from a re-analysis of the deposited data

Results flagged for a closer look

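In 1 of the 42 groups of 4 or 5 arrays formed by the 7 genes, a single array lay far from the others, where chance marks about 1 in 20. On TAC replicate 1 at 3 wk C1qc read 8934, against 11278 to 12106 on the other 4 TAC arrays. On the log2 scale the gap of that array to the nearest was 0.767 of the whole range. The cause was not tested.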

How the results depend on the processing

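At 48 h the count of called genes stayed at 0 of 7 under each of the 25 alternatives. At 10 d it was 6, and 3 to 5 with 1 array left out, 3 with a replicate block and 0 by the unmoderated test. The main scan day alone lost the 10 d calls of C1qb and Mpeg1. Scan day as a block, or no filter, lost that of Mpeg1. C1qa and C1qc kept their 10 d calls in every alternative except the unmoderated test. At 3 wk it was 4, 3 to 4 with 1 array left out, and 0 with only the groups compared, with scan day as a block, on the main scan day alone, with a replicate block and by the unmoderated test. C1qa, C1qb and Cd68 kept their 3 wk calls in 9 of 9 fits without 1 array. The 3 wk call of Lyz2 was also lost after cyclic loess, with no filter, with no intensity trend and with array weights. Fits with scan day left out the 2 arrays without one. The other dated scan day at 3 wk held TAC arrays only. With scan day as a block, TAC against sham at 3 wk therefore rests on the same arrays as the main scan day alone. The count of sham differences, 2, became 1 after quantile normalization, 5 after median centring and 1 after cyclic loess. It was 0 with only the groups compared and 0 to 2 with 1 array left out. The count of differing TAC effects stayed at 0. None of the counts in this paragraph is set against the share of all genes that the same setting called. Directions turned in these cases. Cd68 at 48 h gave -0.00104 with array weights and -0.0748 to 0.0768 with 1 array left out. The dim C1qb probe set gave -0.92, -0.0730 and -0.29, and 0.17 between 3 wk and 10 d sham. Other probe sets gave -0.69 and -0.85 for Csf1r at 10 d and 3 wk, 1.15 for C1ra at 10 d and 0.0526 for Ckm at 3 wk. C1ra at 10 d ran from -0.13 to 0.0263 with 1 array left out. Cd68 passed at 10 d after cyclic loess, with the stricter filter, with array weights and with only the groups compared. Of 521 alternative values of the 7 genes for TAC against sham, 451 kept direction and call, 59 lost a call, 4 gained one and 7 turned. No pairing of arrays by replicate number was seen, though a weak one could be missed this way. Deviations of 12 same-numbered pairs correlated at -0.13 to 0.03, and 0 arrays correlated best with their own number. The causes of these changes were not tested. Dim probe sets, and 4 or 5 arrays a group, limit what can be called.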
